A study of Mus musculus with 28 samples.

Results

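H3K27me3, trimethylation of lysine 27 on histone H3, was mapped by chromatin immunoprecipitation and sequencing (ChIP-seq) in neural stem cells that lack Smchd1 and in wild-type cells. The samples were chosen by their titles: 2 libraries from cells with the MommeD1 null allele on both copies of Smchd1 (genotype MommeD1/MommeD1) and 2 from Smchd1 wild-type cells, 4 of the 28 libraries in the series. All came from male cells of the cross C57BL/6 x FVB/N, grown as adherent cultures from E14.5 embryonic brain in medium with EGF and bFGF. The authors called peak summits, single positions of highest enrichment in mm10, on both libraries of a genotype together, against the whole cell extract of that genotype (1 library each). The deposited data are therefore 1 list of 77 summits for null cells and 1 list of 732 summits for wild-type cells, and no value below has replicate error or a test between genotypes. The number of reads behind each list is unknown. A longer list can come from deeper libraries or a better enrichment as well as from more marked chromatin, and these cannot be told apart here.

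H3K27me3 is written by the Ezh1 and Ezh2 enzymes of Polycomb repressive complex PRC2, together with Eed and Suz12. It spreads over the CpG-rich starts of genes for developmental regulators that a cell keeps silent, often as domains of several kilobases, and is read by Cbx proteins of the complex PRC1. Smchd1, a chromatin protein with a hinge domain like that of cohesin and condensin subunits, is best known for silencing on the inactive X chromosome, which male cells do not have, and for silencing of several imprinted and clustered genes. In neural stem cells, Polycomb target genes include the Hox genes, which set position along the body axis, and transcription factors of other tissues and of later neurons.

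The starts of 4 genes show the kind of DNA that carried the mark. Each sequence runs 5′ to 3′ on the strand of the gene and covers 250 bases before to 50 bases after the start, taken from RefSeq on GRCm38.p6, the same assembly as mm10. Capitals mark every CG (CpG) on that strand. The first pair held the only null summits that fell in a RefSeq promoter window of a coding gene, at Igf2 (a fetal growth factor, imprinted) 96 bp before the start and at Pax2 (a regulator of kidney and midbrain) 79 bp before it. The second pair held wild-type summits, at Hoxa7 17 bp after the start and at Six6 (a regulator of the eye) 28 bp before it.
Igf2, chr7:142661222-142661521, minus strand: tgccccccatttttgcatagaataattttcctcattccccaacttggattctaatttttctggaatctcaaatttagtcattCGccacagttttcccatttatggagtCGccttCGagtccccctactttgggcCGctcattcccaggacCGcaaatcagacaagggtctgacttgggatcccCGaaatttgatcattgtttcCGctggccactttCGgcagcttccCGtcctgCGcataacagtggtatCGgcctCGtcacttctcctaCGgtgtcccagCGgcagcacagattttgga
Pax2, chr19:44746351-44746650, plus strand: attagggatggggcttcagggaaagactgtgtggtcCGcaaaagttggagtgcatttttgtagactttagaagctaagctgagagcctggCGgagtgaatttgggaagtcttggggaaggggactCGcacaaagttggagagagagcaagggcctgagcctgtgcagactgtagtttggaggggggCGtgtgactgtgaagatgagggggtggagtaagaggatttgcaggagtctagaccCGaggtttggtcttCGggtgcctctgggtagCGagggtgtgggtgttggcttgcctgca
Hoxa7, chr6:52218524-52218823, minus strand: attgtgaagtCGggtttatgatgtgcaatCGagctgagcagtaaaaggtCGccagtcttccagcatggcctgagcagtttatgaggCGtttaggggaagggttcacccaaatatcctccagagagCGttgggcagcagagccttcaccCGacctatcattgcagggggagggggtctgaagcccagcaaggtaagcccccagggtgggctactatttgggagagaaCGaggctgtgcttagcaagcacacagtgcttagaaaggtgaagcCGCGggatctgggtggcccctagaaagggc
Six6, chr12:72939632-72939931, plus strand: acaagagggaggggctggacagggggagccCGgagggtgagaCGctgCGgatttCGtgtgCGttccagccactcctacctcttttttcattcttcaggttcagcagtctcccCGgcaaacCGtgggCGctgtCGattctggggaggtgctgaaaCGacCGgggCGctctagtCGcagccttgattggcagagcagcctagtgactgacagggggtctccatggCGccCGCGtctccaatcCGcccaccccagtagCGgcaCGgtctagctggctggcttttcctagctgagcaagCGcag

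These windows held 14 CpGs at Igf2, 7 at Pax2, 9 at Hoxa7 and 20 at Six6, so the number of CpGs varied widely among starts that held a summit. A comparison of CpG content over all marked genes is void, because a promoter sequence was at hand for 17 of the 29 null-marked and 116 of the 178 wild-type-marked genes.

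The cells were checked by H3K4me3, a mark of active gene starts, mapped in the same 2 genotypes. Of 16 marker genes of neural stem cells, 14 in null and 15 in wild-type cells had an H3K4me3 summit within 2 kb of the start, among them Sox2, Nes and Olig2, and none had H3K27me3 in either genotype. The share of all coding genes with H3K4me3 was 58.8% in null and 59.1% in wild-type cells. Pax6 lacked it in null cells, and Msi1 in both genotypes. Of the 4 astrocyte markers 0 had H3K4me3, and of the 9 neuron markers 4, the 5 oligodendrocyte markers 2, the 6 mesenchymal markers 2, the 5 microglia or blood markers 1 and the 4 endothelial markers 1 had it, with equal counts in both genotypes. Of the 4 neural crest markers, 2 in null and 1 in wild-type cells had H3K4me3, and H3K27me3 was listed at Tfap2a in null and at Tfap2a, Foxd3 and the mesenchymal marker Twist1 in wild-type cells. Of 8 housekeeping genes 7 had H3K4me3 in each genotype. Smchd1 itself and the Polycomb genes Ezh1, Ezh2, Eed, Suz12, Jarid2, Rnf2, Cbx2, Cbx7, Cbx8 and Bmi1 had H3K4me3 and no H3K27me3 at the start in both genotypes, which does not test the null allele.

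Marked domains were built by chaining summits of a list that lay no more than 5 kb apart. Null cells had 65 domains and wild-type cells 303. Null domains were small: 53 held 1 summit and 12 held 2, and none held more. Of the wild-type domains 150 held 1 summit, but 43 held 5 or more and the largest held 13. At least 2 summits were present in 18.5% of null domains (exact 95% interval 9.92 to 30.0%) and in 50.5% of wild-type domains (44.7 to 56.3%). With the wild-type list cut to its 77 summits of highest score, the wild-type share was 20.0% (21.7% with tied scores taken in reverse order), close to the null share. Domains of several summits spanned 415 to 4211 bp in null cells, with a median of 1215 bp, and 194 to 19868 bp in wild-type cells, with a median of 3594 bp. Their summed length was 21613 bp in null and 697870 bp in wild-type cells. Intervals here and below are exact binomial (Clopper-Pearson) ones, cover counting error only and treat domains as independent.

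**Figure D1:**
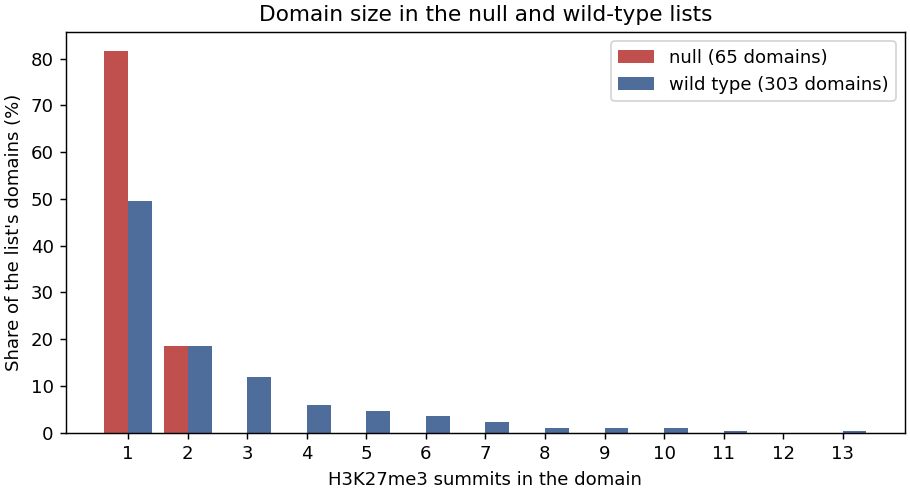
Share of a list's domains (%, bars from 0) by the number of H3K27me3 summits in the domain, for 65 null domains (red) and 303 wild-type domains (blue). Null domains stop at 2 summits, while wild-type domains reach 13, in lists of 77 and 732 summits.

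Most null domains lay near places that were marked in wild-type cells too. Of the 65 null domains, 54 (83.1%, interval 71.7 to 91.2%) had a wild-type summit within 5 kb, against 56 of the 303 wild-type domains (18.5%, interval 14.3 to 23.3%) with a null summit within 5 kb. These are 83.1% and 18.5% as shares of each list, of which the null list is by far the shorter. The coincidence was one of regions more than of positions: 26 of the 77 null summits lay inside the limits of a wild-type domain, 38 outside but within 5 kb of one and 13 farther away. With 1 kb as the distance, 49.2% of null domains had a wild-type summit. For scale, H3K4me3 summits chained the same way gave 94.2% of 15196 null and 93.2% of 15368 wild-type domains with a summit of the other genotype within 5 kb, in lists of nearly equal length. At the 54 shared null domains the null list held a median of 1 summit and the wild-type list 3 within 5 kb, with more wild-type summits at 39, equal numbers at 14 and more null summits at 1. The top scores of the 2 lists at these 54 domains were nearly unrelated in rank (Spearman's rho 0.086, a description over domains of 2 pooled lists).

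Wild-type domains of many summits were more often shared. A null summit lay within 5 kb of 18 of 43 wild-type domains with 5 or more summits (41.9%, interval 27 to 57.9%) and of 13 of 150 with 1 summit (8.67%, interval 4.70 to 14.4%), and these intervals do not overlap. Domains of 2 summits (23.2%) and of 3 or 4 (22.2%) lay between them. A longer domain also offers a longer stretch for a null summit to fall near, and its part in this order was not tested. By top score the share was 11.5% for 52 domains under 4.5, 15.2% for 138 domains of 4.5 to 5.5, 23.5% for 81 domains of 5.5 to 6 and 31.3% for 32 domains of 6 or more, with overlapping intervals. The score is the authors' −log10 of p or q and is coarse: 252 of the 732 wild-type summits (34.4%) share the value 4.51, and the 77 null summits hold 29 distinct values.

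**Figure D2:**
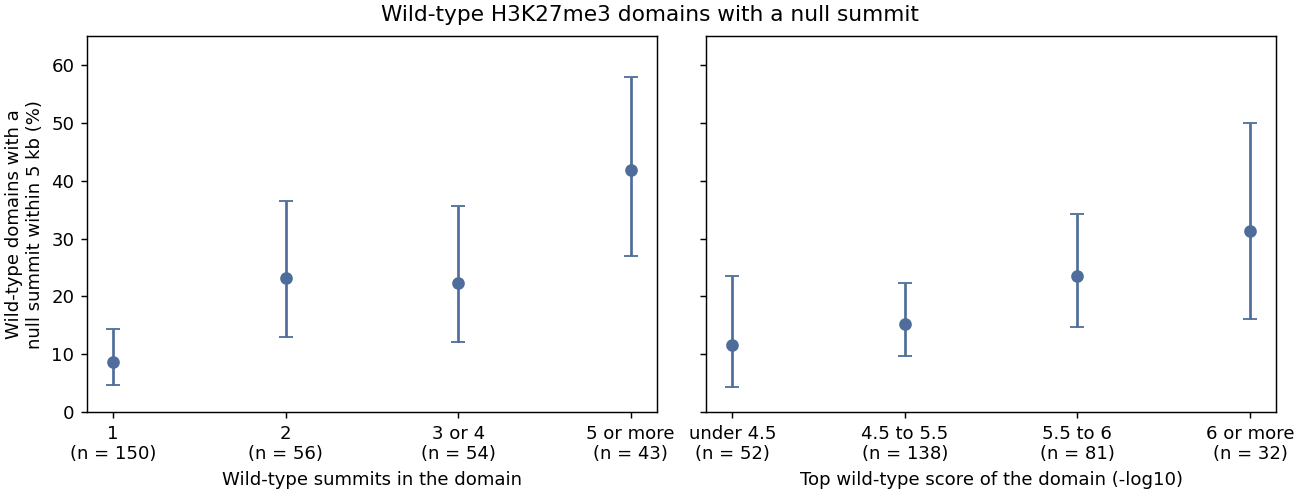
Share of wild-type H3K27me3 domains with a null summit within 5 kb (%), by the number of wild-type summits in the domain (left) and by its top score, −log10 of p or q (right); points are shares and bars exact 95% intervals. The share is 41.9% for domains of 5 or more summits and 8.67% for single-summit domains.

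The lists were then made equal in length by keeping the 77 wild-type summits of highest score. Because 100 wild-type summits are tied at the limit of 5.60 and 54 lie above it, this was done with ties in genome order and in reverse. A wild-type summit then lay within 5 kb of 21.5% and 26.2% of null domains, and a null summit near 25% and 28.3% of the 60 wild-type domains left. With equal lists, most of the highest-scoring wild-type domains had no null summit nearby, and most null domains had no high-scoring wild-type summit nearby.

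Most of the largest null domains stood at homeobox genes, which encode DNA-binding regulators of position and cell identity. Those of 2 summits lay, by nearest coding start, at Lhx4 (pituitary and motor neurons, top score 5.96), Lhx9 (gonad and brain, 4.60), Hoxd13 (limb, 5.96), Hoxa5 and Hoxa7 (4.81 each), Hoxc12 (4.81), Hoxc13 (4.60), Tlx3 (spinal sensory neurons, 4.81), Onecut2 (4.65), the zinc finger gene Fezf1 (5.96), the T-box gene Tbx3 (3.73) and E030030I06Rik (4.96). The last of these had its top summit in the pseudogene Gm4895, and its wild-type counterpart scored 9.08. Among single null summits the highest near a developmental gene was at Sim2 (a regulator of the midline, 7.16), 5133 bp from its nearer annotated end, with 4 wild-type summits within 5 kb. The domain at Hoxa7 (chromosome 6, 52216402 to 52220612) was the longest of the null list and had 10 wild-type summits within 5 kb.

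Of the 65 null domains, 11 had no wild-type summit within 5 kb. They lay near Hoxb9 (chromosome 11, 96269885, score 5.96), Hoxb13 (96204163, 4.81), Pitx1 (hindlimb and pituitary, 4.81), Pou4f1 (sensory neurons, 4.81), Nkx2-6 (pharynx, 4.81), Hoxc13 (4.60), Tmem174 (4.33, 131233 bp away), Tbx3 (3.73), Twist1 (mesenchyme, 3.73), Hoxa13 (3.72, inside the long noncoding RNA gene Hottip) and Evx1 (3.41). Of the genes nearest to them, Pou4f1, Twist1 and Hoxa13 were marked in wild type no more than 2 kb from the start, although over 5 kb from the null domain. At Pitx1 and Hoxc13, whose start was not known here, the null and the wild-type summits lay near opposite annotated ends of the gene. At Pitx1 the null summit was 1518 bp and the wild-type summit 1504 bp from its end, and at Hoxc13 the null summit was 1099 bp and the wild-type summit 842 bp from its end. With a distance of 10 kb, 92.3% of null domains had a wild-type summit. None of the 11 had null H3K4me3 within 1 kb, and the one near Pou4f1 had a wild-type H3K4me3 summit.

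Among the wild-type domains without a null summit within 5 kb, the largest were again at developmental regulators. The domain at Barx1 (stomach and face) held 11 summits over 8978 bp, that at Nkx2-3 (spleen and gut) 10 over 19868 bp, the longest of all, and that nearest to Hoxd4, its top summit inside Hoxd3, 9 over 15546 bp. Domains of 8 summits lay at Tcf21 (heart and kidney mesenchyme) and Sim1 (hypothalamus), and domains of 7 at Dlx2 (forebrain interneurons), Foxl2 (ovary), Six6 and Gata4 (heart, its top summit inside the gene and 24020 bp from its nearer annotated end). Domains of 6 lay at Evx2, Isl2 and Prdm12 (motor and sensory neurons), Ebf2, Gata3 (T cells) and Hoxa10. Domains of 5 included those at Otx2 (forebrain and midbrain), Dlx5, Pax3 (neural crest and muscle) and Pax1 (vertebrae), which complete the 20 with most summits, and, tied with them, those at Mecom, Olig3, Rax, Onecut1 and Tbx18. Of the 20 domains, 6 had H3K4me3 in wild-type cells within 1 kb, among them Foxl2, Isl2 and Gata3, and 4 of the 6 had it in null cells too, the exceptions being Sim1 and Ebf2. Of the tied domains, Mecom, Onecut1 and Tbx18 had wild-type H3K4me3 too, so this count depends on where the 20 end.

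Large wild-type domains that did have null summits were at genes of the same kinds. The largest, with 13 wild-type summits over 16415 bp (chromosome 6, 52204515 to 52220929), ran from Hoxa5 to Hoxa7 and had 4 null summits within 5 kb. Domains of 10 lay at Tbx15 (13450 bp, 1 null summit) and at Hmx3 (2), one of 9 at Hand2 (1), and one of 8 at Foxb1 (12893 bp, 1). Foxd3 (neural crest), Lhx1 and Lbx1 had 7 each with 1 null summit.

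Null domains covered a small part of each Hox cluster, in a list of 77 summits against 732 in wild type. Null and wild-type summits numbered 6 and 42 in HoxA, 2 and 2 in HoxB, 5 and 15 in HoxC and 4 and 28 in HoxD. The part of list length in these differences was not tested. In HoxA (chromosome 6, 52135367 to 52280880, the genes with 20 kb on each side) null cells had 4 domains of 7264 bp in summed length of several-summit domains, and wild-type cells had 9 of 52089 bp. Of the 4 null domains, 3 lay between Hoxa4 and Hoxa7 and the other beyond Hoxa13, while the wild-type domains at Hoxa2, Hoxa10 and Hoxa13, and one inside Hoxa3, had no null summit within 5 kb. In HoxD (chromosome 2, 74648225 to 74785142) the 3 null domains lay at Hoxd13, Hoxd11 and Hoxd10, and the wild-type domains over Evx2, Hoxd3, Hoxd4, Hoxd8 and Hoxd1 were not matched. In HoxC (chromosome 15, 102901131 to 103056856) null cells had 3 domains, at Hoxc13, Hoxc12 and Hoxc6, and wild-type cells 9, spread from Hoxc13 to Hoxc6. HoxB (chromosome 11, 96174316 to 96388254) had 2 null and 2 wild-type domains of 1 summit, and 0 were shared: null at Hoxb9 and near Hoxb13, wild type at Hoxb7 and 16784 bp from Hoxb13. H3K4me3 stood within 1 kb of 1 null and 3 wild-type HoxA domains and of 0 in the other clusters.

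**Figure D3:**
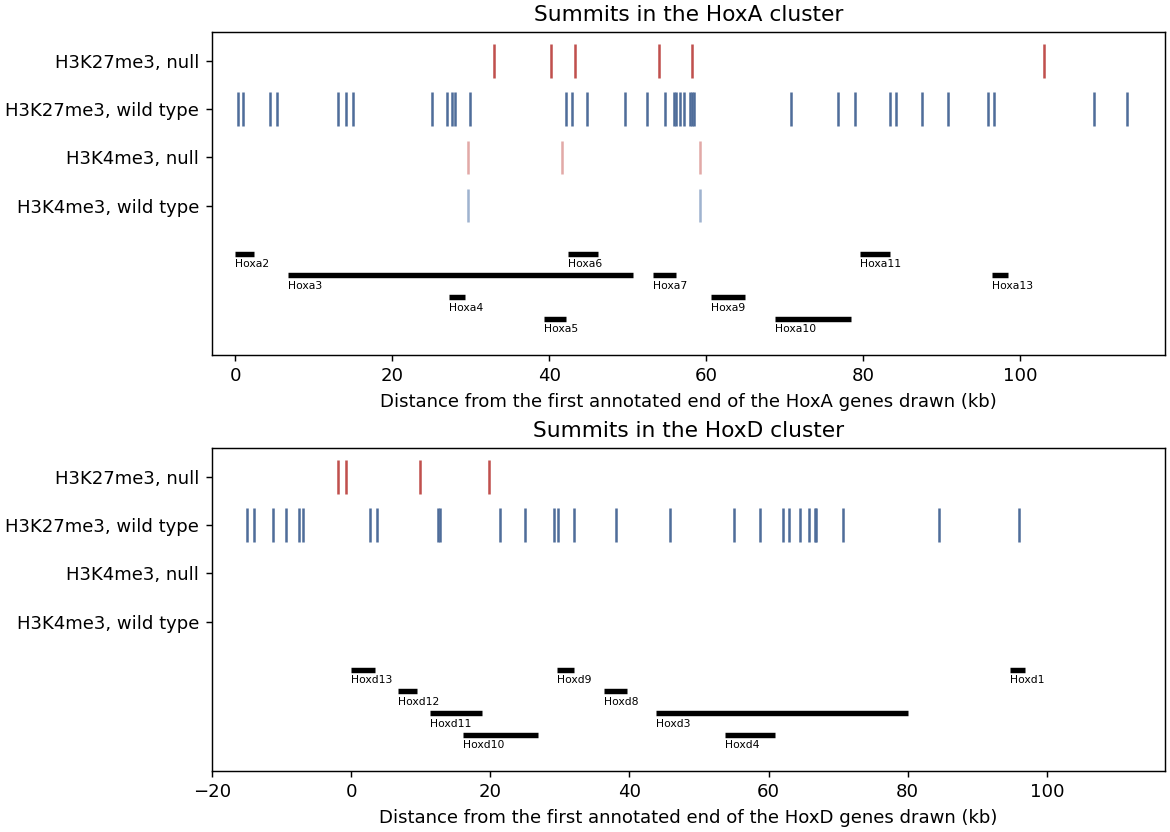
Summits in the HoxA (top) and HoxD (bottom) clusters, by distance from the first annotated end of the genes drawn (kb); each vertical line is a summit of H3K27me3 in null (red) and wild-type (blue) cells or of H3K4me3 (pale colours), and black bars are genes. Null H3K27me3 summits lie between Hoxa4 and Hoxa7, with 1 beyond Hoxa13, and around Hoxd13 to Hoxd10, where wild-type summits run across each panel. The whole H3K27me3 lists hold 77 null and 732 wild-type summits.

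A gene is called marked here if it had a summit no more than 2 kb from its start, or from either annotated end for the 4395 of 21887 protein-coding genes whose start is not in the RefSeq promoter table. Null cells had 29 marked genes (0.132% of all) and wild-type cells 178 (0.813%), with 21 on both lists (0.0959%), 8 on the null list alone (0.0366%) and 157 on the wild-type list alone (0.717%). With 77 summits in each list, 29 genes were marked in null and 22 in wild type (28 with ties reversed). Marked in both were 5 (6 with ties reversed). This cut changed both the length and the lowest score of the wild-type list, and the part of each was not tested. With the same score limit for both lists, null and wild-type counts were 18 and 160 at a score of at least 4, and 4 and 63 at 5. The start itself was known for 17 of the 29 and 116 of the 178, and for the others "start" here and above means the nearer annotated end. At 1 kb the shares of all genes were 0.0548% in null and 0.548% in wild type, at 5 kb 0.224% and 1.04%, and with whole genes and 2 kb on each side 0.196% and 1.02%. Among the 21 were Zdbf2, Lhx4, Lhx1, Gsc, Tfap2a, Pitx1, Otp, Osr2, Hoxc13, Hoxc6, Gata6, Foxb2, Lbx1, Hoxd11, Msx1, Hoxa5, Gata2, Hmx2 and Igf2. Pitx1 and Hoxc13 count on both lists only because either annotated end was allowed, as their null and wild-type summits lay near opposite ends. The 8 were Lhx9, Hoxb9, Nkx2-6, Hoxc12, Pax2, Hoxd13, Tbx3 and Tbx20. The null domains at Lhx9, Hoxc12, Pax2, Hoxd13 and Tbx20 had 1 or 2 wild-type summits within 5 kb, so these genes lay beside wild-type mark. Zdbf2 and Igf2, both imprinted, and the homeobox gene Lbx1 were the only null-marked genes outside the developmental factor list. Igf2 was marked by a null summit of 4.81 and a wild-type summit of 4.51.

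Developmental transcription factors, gathered by symbol into 21 families, made up most of both sets. Of 347 such genes, 7.49% (26 genes) were marked in null and 35.4% in wild-type cells, against 0.132% and 0.813% of all coding genes. With 77 summits in each list the counts were 26 genes in null and 18 in wild type (22 with ties reversed), in the opposite order. That cut also raised the lowest wild-type score to 5.60, while the null list was kept whole. With the same score limit for both lists the order stayed. Null and wild-type counts were 16 and 108 at a score of at least 4, and 4 and 46 at 5. The parts of list length and score were not tested. By nearest gene, 54 of the 65 null domains (83.1%, interval 71.7 to 91.2%) and 216 of the 303 wild-type domains (71.3%, interval 65.8 to 76.3%) belonged to them. The wild-type list also held relatives that the symbol patterns missed, such as Sim1, Sim2, Fezf1, Fezf2, Dmrt1 and Dmrt2.

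Families differed in how many members were marked, in lists of 77 null and 732 wild-type summits. Over all developmental factors the shares were 7.49% in null and 35.4% in wild type, and over all coding genes 0.132% and 0.813%. Scores of the 2 lists come from separate calls and are given side by side without a comparison. Of 11 HoxA genes 1 was marked in null (Hoxa5) and 10 in wild-type cells. Hoxa7 narrowly missed the 2 kb limit in null, where the top summit of its domain lay 2171 bp from the start. Gata genes had 2 of 6 in null and 4 in wild type: Gata2, a blood regulator, scored 4.5 in null and 5.19 in wild type, and Gata6, of endoderm and heart, 3.56 and 4.40. The LIM homeobox genes had 3 of 12 in null and 6 in wild type, among them Lhx4 (5.96 in null, 4.99 in wild type) and Lhx1 (3.52 in null, 6.37 in wild type). The paired-like homeobox genes had 4 of 38 in null (Gsc, Otp, Pitx1 and Hmx2) and 17 in wild type.

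Other families had few or no null-marked genes, beside 0.132% of all coding genes and 7.49% of developmental factors marked in null. In wild type these shares were 0.813% and 35.4%. At the null shares a small family can hold none, and families were not counted with lists of equal length. Of 37 bHLH factors, which include the proneural genes, 0 were marked in null and 10 in wild type, among them Tal1 (blood, 6.75), Bhlhe22, Nhlh2, Olig3 and Tcf21 (5.60 each). Dlx genes had 0 of 6 in null and 4 in wild type, and the Otx, Emx, En, Gbx, Evx and Cdx group 0 of 13 in null and 7 in wild type, with Evx2 (6.95) and Otx2 (6.50) highest. Nearby null domains did exist for some of them: by nearest gene, 3 null domains belonged to bHLH genes (Hand2 and Twist1) and 3 to En1 and Evx1. The T-box genes Tbx3 and Tbx20 were marked in null, and Tbx2 (7.93), Tbr1, Tbx15 and Tbx18 in wild type, with 3 of the 4 null T-box domains within 5 kb of a wild-type summit. Of 44 Fox genes 1 in null (Foxb2) and 11 in wild type were marked.

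In other lists 0 genes were marked, beside 0.132% (null) and 0.813% (wild type) of all coding genes, shares at which a small list can hold none. None of 19 Sox genes, 8 Zic and Gli genes, 22 Fgf genes, 14 Pcdha, 22 Pcdhb, 21 Pcdhg and 367 Zfp genes had H3K27me3 within 2 kb of the start in either list. By nearest gene, 1 wild-type domain belonged to a Sox gene and 2 to Zic and Gli genes. Among signalling genes, 0 of 19 Wnt genes in null and 2 (10.5%) in wild type were marked (Wnt1, a midbrain signal, 5.60, and Wnt6, 5.19), and 0 of 24 Bmp and Gdf genes in null and 1 (4.17%) in wild type (Gdf6, 5.60).

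**Figure D4:**
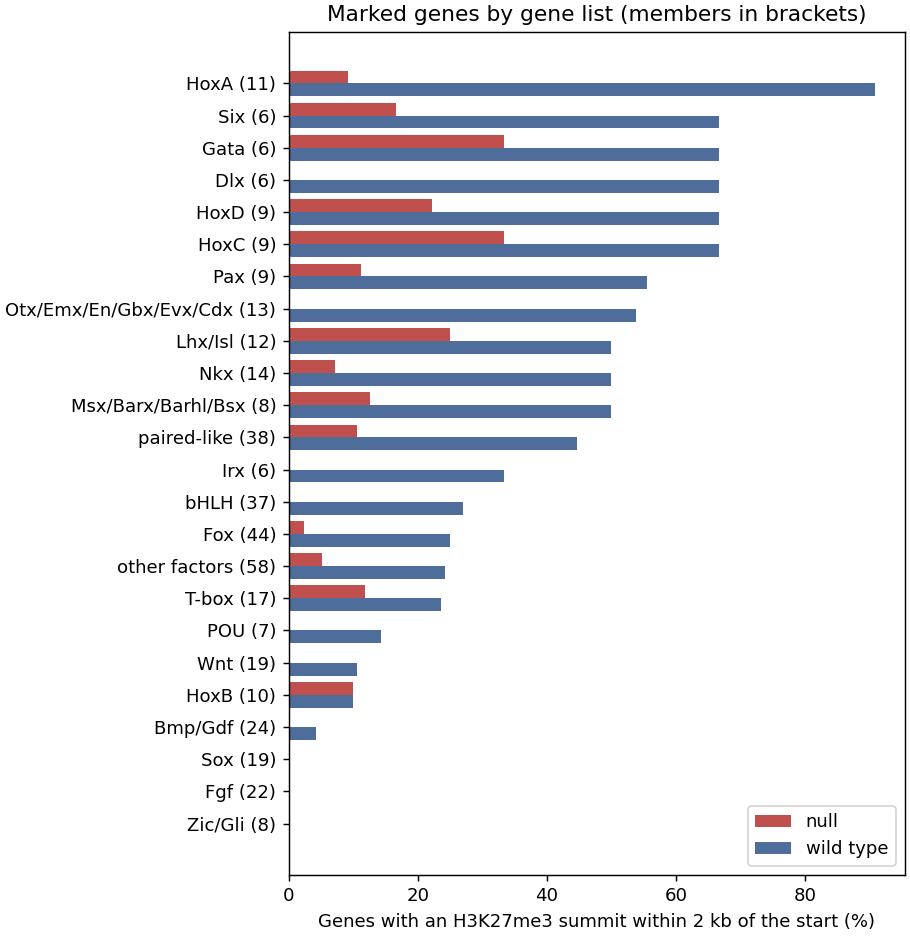
Share of the genes of each list (%, bars from 0, members in brackets) with an H3K27me3 summit within 2 kb of the start in null (red) and wild-type (blue) cells. HoxA reaches 9.09% in null and 90.9% in wild type, and Sox, Fgf and Zic/Gli have none, in lists of 77 and 732 summits.

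H3K4me3 beside H3K27me3 marks starts called bivalent, at which both marks are found. An H3K4me3 summit of the same genotype lay within 1 kb of 5 null domains (7.69%, interval 2.54 to 17.0%), among them those at Lhx4, Hoxa5, Osr2 and Lbx1, and of 70 wild-type domains (23.1%, interval 18.5 to 28.3%). The part of domain length in this difference was not tested. Among single-summit domains the shares were 3 of 53 in null (5.66%, interval 1.18 to 15.7%) and 27 of 150 in wild type (18.0%, interval 12.2 to 25.1%), with overlapping intervals. At 5 kb the shares were 33.8% for null and 39.3% for wild-type domains, and at 10 kb 46.2% and 48.5%, and the intervals overlapped at both distances. The wild-type domains that were shared with the null list had H3K4me3 at 16 of 56 (28.6%) in null and 14 of 56 (25%) in wild-type cells, and those not shared had it at 54 of 247 (21.9%) in null and 56 of 247 (22.7%) in wild type.

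**Figure D5:**
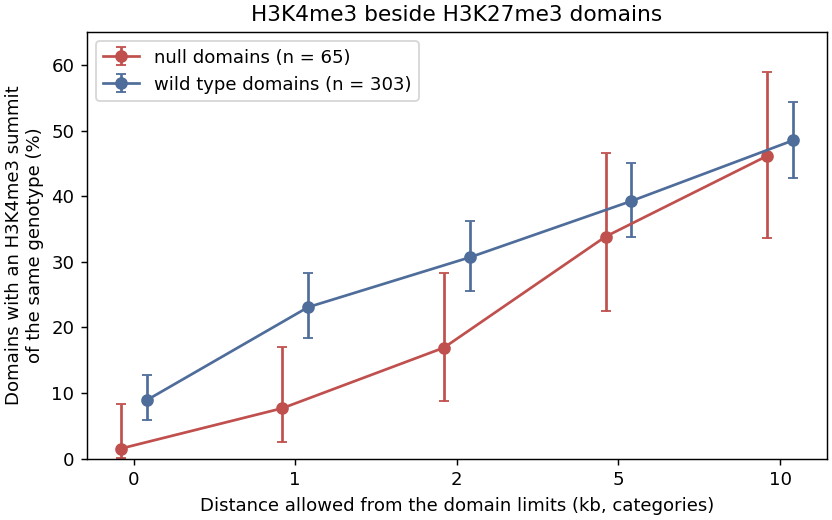
Share of H3K27me3 domains with an H3K4me3 summit of the same genotype (%), by the distance allowed from the domain limits (kb, as categories), for null (red, n = 65) and wild-type (blue, n = 303) domains; bars are exact 95% intervals. At 1 kb the shares are 7.69% and 23.1%, and at 10 kb 46.2% and 48.5%, in lists of 77 and 732 summits.

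Genes on the wild-type H3K27me3 list alone had H3K4me3 about as often in both genotypes. Of these 157 genes, 64 had H3K4me3 in null and 65 in wild-type cells (40.8% and 41.4%). H3K4me3 was listed in null only at 9 (Ikzf3, Foxa1, Pou4f1, Hs3st6, Shox2, Tchh, Foxe1, Emx1 and Bnc1) and in wild type only at 10 (Ecel1, Sim1, Fezf2, Ebf2, Sim2, Alx4, Insrr, Slc30a3, Comp and Tbx18). These are 5.73% and 6.37%, against 0.859% and 1.16% of all coding genes. Their scores at the start were low for H3K4me3. They were 4.08 to 11.2 in null for the first set and 5.27 to 12.5 in wild type for the second. The list medians were 24.6 in null and 26.5 in wild type. These labels hold for the start window of 2 kb, not for the domains. No more than 1 kb from the wild-type Tchh domain, both genotypes had H3K4me3, scoring 20.1 in wild type. The null domain near Pou4f1 lay this close to wild-type H3K4me3 alone. For wild-type domains at Foxa1, Hs3st6, Shox2, Foxe1, Emx1 and Bnc1 it was null H3K4me3 alone.

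The 29 genes with H3K27me3 in null cells had H3K4me3 within 2 kb of the start more often on the null list. The same genes were read in both lists, so their separate intervals do not measure the difference, which was not tested. It was listed at 13 of them in null (44.8%, interval 26.4 to 64.3%) and at 7 in wild type (24.1%, interval 10.3 to 43.5%), against 58.8% and 59.1% of all coding genes and 55.6% and 56% of developmental factors without H3K27me3. It was listed in null only at 6 (Tfap2a, Gata6, Pax2, Lbx1, Tbx3 and Hoxa5) and in wild type only at 0 (interval 0 to 11.9%). Over all coding genes these shares were 0.859% and 1.16%. The labels cover the 2 kb window at the start only. At Tfap2a the null H3K27me3 domain had a wild-type and no null H3K4me3 summit within 1 kb. The wild-type Tfap2a domain from 40727860 to 40738900 had 2 in each genotype. At Hoxa5 and Lbx1 the null domain had null H3K4me3 only. The null H3K4me3 scores were 11.7 at Hoxa5, 6.98 at Tbx3, 6.96 at Lbx1, 5.95 at Gata6 and 4.86 at Tfap2a and Pax2. All were under the list's median, and whether they differ between genotypes beyond replicate spread was not tested. Beside the 65 null domains the 2 H3K4me3 lists were nearly equal. Null H3K4me3 lay within 1 kb of 5 of them (7.69%) and wild-type H3K4me3 within 1 kb of 4 (6.15%).

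Smchd1 was mapped in wild-type cells, with 407 summits on its 5e-4 list. A summit of that list lay within 1 kb of 2 null domains (3.08%, interval 0.375 to 10.7%), at Hoxa5 and Tfap2a, and of 14 wild-type domains (4.62%, interval 2.55 to 7.63%). Within 5 kb the shares were 13.8% of null and 11.9% of wild-type domains, in the opposite order. How often other places lie this near to Smchd1 was not counted. Of the 14, 4 were in HoxA, and others were at Hoxd9, Evx2, Gata3, Mecom, Tchh, Msx1, Nkx6-1, Tfap2a and Onecut2. The share was 10.7% (6 of 56, interval 4.03 to 21.9%) for wild-type domains with a null summit within 5 kb. It was 3.24% (8 of 247, interval 1.41 to 6.28%) for those without, with overlapping intervals. The 6 include the long domain from Hoxa5 to Hoxa7. The shared domains were also larger: 76.8% held 2 or more summits, against 44.5% of the others. The part of domain length in this difference was not tested.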

How the data were processed

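Base calling used CASAVA 1.4 and peaks were called with MACS2 (version 2) on mm10, per the submitters' processing notes. The sources used here name no aligner. Per the labels, each H3K27me3 list was called on both libraries of a genotype. The score in the deposited lists is on the −log10 scale, of p or of q, a choice not stated there. Scores were ranked or filtered only within a list, and peak widths were not used. Of the deposited lists, 9 were used; 2 MBD lists were not used here. No summit of the H3K27me3 lists lay on unplaced contigs. Depth per library is unknown.

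Gene positions came from RefSeq on GRCm38.p6, and starts from its promoter table for 17492 of 21887 protein-coding genes. Shares have exact 95% Clopper-Pearson intervals. Domains were named by the coding gene with the start nearest to the highest summit. The genes named are those of all null domains without a wild-type summit, the 15 largest null and the 20 largest unshared wild-type domains, the 10 longest wild-type domains, up to 4 genes per list and the Polycomb genes; other genes were named after their values were seen. Results for some of these genes are not reported here. Members and lists were chosen with earlier results of these data known. Chaining, overlap and gene marking were tested on simulated data. Python 3.11.15, numpy 2.4.6, pandas 2.3.3, scipy 1.17.1 and matplotlib 3.10.9 were used.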

Additional observations from a re-analysis of the deposited data

How the results depend on the processing

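Of 129 alternative values, 72 stayed within the interval of the share or within 1.5 times the count and 57 did not. The cause was not tested. No paired analysis was possible because the libraries of a genotype were pooled before summits were called, and for the same reason no replicate could be left out. Chaining at 2 kb put 2 or more summits in 36.8% of wild-type domains and H3K4me3 beside 16.2%, and chaining at 10 kb gave 58.7% and 30.0%. A score of at least 4 left 37 null domains, a null summit beside 10.4% of wild-type domains, 18 null-marked genes (16 developmental factors) and 12 marked in both. A score of at least 5 left 8 null and 135 wild-type domains, of which 31.1% of the wild-type ones held 2 or more summits, a wild-type summit beside 50% of null and a null summit beside 2.96% of wild-type domains, Smchd1 beside 0% of null and 8.15% of wild-type domains, and 4 null-marked genes (4 developmental factors), 63 wild-type-marked genes (46) and 0 marked in both. With 77 summits each, 60 wild-type domains remained, of which 20.0% held 2 or more summits; a wild-type summit lay beside 21.5% of null and a null summit beside 25% of wild-type domains, H3K4me3 beside 16.7% and Smchd1 beside 10.0% of wild-type domains, with 22 wild-type-marked genes (18 developmental factors) and 5 in both. With ties reversed, an order chosen after seeing the data, these were 60, 21.7%, 26.2%, 28.3% and 15.0% for H3K4me3, with 28 genes (22) and 6 in both. Sharing within 1 kb held for 49.2% of null and 9.90% of wild-type domains, and within 10 kb for 92.3% and 23.4%. Gene starts within 1 kb gave 12 null-marked genes (0.0548% of all), 4 in both, and 10 null and 79 wild-type developmental factors; within 5 kb they gave 49 (0.224%), 45 in both and 42 null developmental factors; whole genes gave 38 in both. H3K4me3 inside the limits was found for 1.54% of null and 8.91% of wild-type domains and within 5 kb for 33.8% and 39.3%. Smchd1 within 5 kb was found for 13.8% of null and 11.9% of wild-type domains, and the 5e-3 Smchd1 list within 1 kb for 9.24% of wild-type domains. Without domains over 20 kb from a coding start, and with either gene end for all genes, both chosen after seeing the data, no value moved so far. Read depth is unknown, so a place missing from the null list may be marked below the calling threshold.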

Other observations

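The highest summit of both H3K27me3 lists was the same place and not a developmental gene. It lay on chromosome 8 at 123558162 in null (score 7.53) and 123558167 in wild-type cells (11.3), within an array of 41 annotated 5S ribosomal RNA genes (n-R5s) between 123538784 and 123622046, whose copies are near-identical, so the position is uncertain. The nearest 5S gene start, n-R5s111, was 674 and 679 bp away, and the H3K4me3, Smchd1 and Ctcf lists had 0 summits within 1 kb.

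A few domains lay over 20 kb from any coding gene start: 6 of 65 in null (9.23%, exact 95% interval 3.46 to 19.0%) and 25 of 303 in wild-type cells (8.25%, interval 5.41 to 11.9%). Of the 6 in null, 5 had a wild-type summit within 5 kb. One lay inside the imprinted gene Zdbf2 and the long noncoding RNA gene 1700039I01Rik (null score 4.37, and 4 wild-type summits in the matching domain), one inside Hdnr, a long noncoding RNA gene 24363 bp from Hand2 (3.73), one inside Rnf220 (5.96) and one 21464 bp from the start of Tfap2a (3.73). Ctcf anchors chromatin loops. The null Ctcf list lay within 1 kb of 0 of 65 null domains (interval 0 to 5.52%) and 15 of 303 wild-type domains (4.95%). The untransduced wild-type Ctcf list lay within 1 kb of 0 null and 6 wild-type domains (1.98%). For the non-silencing wild-type Ctcf list these were 2 null (3.08%) and 21 wild-type domains (6.93%). How often other places lie this near to Ctcf was not counted.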
